A study of Arabidopsis thaliana with 15 samples.

Results

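AT5G15950, a gene for S-adenosylmethionine decarboxylase, was followed in roots of Arabidopsis thaliana given nitrate or ammonium after nitrogen starvation. It was selected on its measured pattern, the low level at 8 h of ammonium, so its own levels are given as a description without a test. It is 1 of the 13333 genes that had a probe set of their own here, and 1 of the 22746 probe sets on the array reads it. The pattern was not particular to ammonium, because the level at 8 h of nitrate was lower still.

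Columbia-0 plants were grown hydroponically to growth stage 5.10 and moved to medium without nitrogen for 26 h, and all 5 groups share this history. Roots were taken just before supply, or 1.5 h or 8 h after the supply of either nitrate or ammonium, each at 1 mM. Each group held 3 samples named as biological replicates, every one pooled from at least 5 plants and hybridised to its own Affymetrix array (15 arrays). The counter-ion of each supply was not given, and no roots kept without nitrogen were sampled at 1.5 h or 8 h, so the effect of supply and of elapsed time or hour of day cannot be told apart. In whole roots, fewer cells of a type and less RNA per cell cannot be told apart either.

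Polyamines are small, positively charged molecules that bind nucleic acids and are needed for cell division, translation and vascular development. S-adenosylmethionine decarboxylase turns S-adenosylmethionine into the aminopropyl donor from which spermidine, spermine and thermospermine are built on putrescine, itself made from arginine. The enzyme therefore draws on the methyl donor pool that also feeds ethylene synthesis and methylation, and its transcripts carry a conserved upstream reading frame through which polyamines restrain translation. Arabidopsis has a small family of these genes, of which SAMDC (AT3G02470) and AT3G25570 could be read here beside AT5G15950.

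Values are RMA levels on the log2 scale, in which a difference of 1 is a doubling of signal and levels of different probe sets are not comparable. Sample medians lay between 6.76 and 6.83, and replicates correlated at r = 0.9935 to 0.9978 across probe sets. Among root markers 2 of 12 had a named probe set, PYK10, a root beta-glucosidase, at 12.16 to 12.92 and the root hair expansin EXPA7 at 9.72 to 10.51. Of 12 shoot markers 1 was readable, Rubisco activase (RCA), at 5.82 to 6.46. PYK10 rose by 0.58 ± 0.08 log2 after 8 h with nitrate (limma adjusted p = 4.12e-05) and by 0.61 ± 0.08 with ammonium (adjusted p = 4.71e-05). It was also called higher at 1.5 h of ammonium, by 0.27 ± 0.08 (adjusted p = 0.0311). EXPA7 was called higher at 8 h of nitrate, by 0.38 ± 0.12 (adjusted p = 0.0281), and not at 8 h of ammonium (0.08 ± 0.12). AT5G15950 was low at 8 h, and the part of these marker changes in that result was not tested. The array data carry no detection call, and the lower quartile of a sample was 4.36 to 4.52, so a level under 5 is described below as not shown to be above background. Precision is limited by the number of arrays, and the standard error of a difference between groups had a median of 0.0921.

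AT5G15950 had its highest levels before supply, with values of 8.94, 9.32 and 9.24 in the 3 samples. At 1.5 h of nitrate they were 8.70, 8.75 and 9.03. At 1.5 h of ammonium they were 8.63, 8.80 and 8.95. These 3 groups overlapped each other, so the order of their means, 9.17 ± 0.20 (SD, n = 3) before supply, 8.83 ± 0.17 with nitrate and 8.79 ± 0.16 with ammonium, is not separated by the spread between samples.

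By 8 h the gene stood far lower with either nitrogen form. The samples at 8 h of ammonium read 6.62, 6.63 and 6.60. Those at 8 h of nitrate read 6.33, 6.52 and 6.16. All 6 late samples lay below all 9 earlier ones, and the nitrate samples lay below the ammonium samples without overlap. The late means were 6.62 ± 0.02 (SD, n = 3) with ammonium and 6.34 ± 0.18 with nitrate, still above the lower quartile of every sample.

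Against the roots before supply the difference at 8 h was −2.55 ± 0.12 log2 (± SE of limma's fit, n = 3 per group) with ammonium, a 5.86-fold lower signal. With nitrate it was −2.83 ± 0.12, a 7.09-fold lower signal. At 1.5 h the differences were −0.37 ± 0.12 with ammonium and −0.34 ± 0.12 with nitrate, which is 14.6% and 12% of the respective late differences on the log2 scale. Most of the decline therefore fell between the times of harvest, at −2.18 ± 0.12 from 1.5 h to 8 h with ammonium and −2.49 ± 0.12 with nitrate. These comparisons share the roots before supply or the roots at 1.5 h, so they are not independent of each other.

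Nitrate minus ammonium was 0.03 ± 0.12 log2 at 1.5 h and −0.28 ± 0.12 at 8 h, and the ion difference moved by −0.31 ± 0.17 between the times. Groups that do not overlap are common on these arrays. Compared with roots before supply, they made up 31.4% of all probe sets for nitrate and 30.3% for ammonium after 8 h. For the ions the shares were 29.7% at 1.5 h and 27.7% at 8 h. For 8 h against 1.5 h they were 29.8% with nitrate and 31.8% with ammonium. The separation of the ions by 0.28 at 8 h was thus of a kind that a large minority of probe sets showed.

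**Figure D1:**
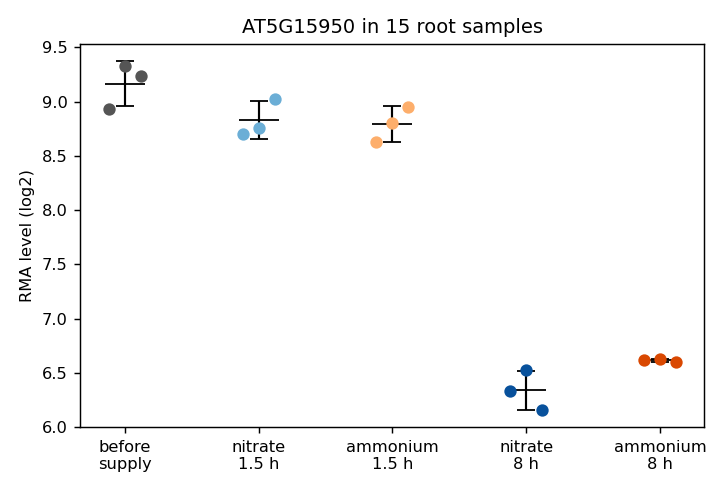
RMA level of AT5G15950 (log2, vertical axis) in each of the 15 root samples, by group. Points are samples, and the bar with whiskers is the group mean ± SD (n = 3). The 9 samples up to 1.5 h lie between 8.63 and 9.32, and the 6 samples at 8 h lie between 6.16 and 6.63.

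Ordered by the difference at 8 h of ammonium, AT5G15950 was number 10 from the bottom of 22746 probe sets. It was number 18 from the bottom at 8 h of nitrate. At 1.5 h it was number 1047 with ammonium and number 1228 with nitrate. These ranks describe the comparisons in which the gene was chosen, and nothing is read from them.

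At limits set after the values were seen, and so as a description only, 15 probe sets were at least 2 log2 lower at 8 h with each ion, 6 of them with 1 named gene. NRT2.5, the high-affinity nitrate transporter of starved roots, was among these. Of the 15, 4 had also moved by under 0.5 at 1.5 h with each ion, AT5G15950 and 3 probe sets not assigned to exactly 1 named gene. NRT2.5 had already moved by −0.54 with nitrate and −0.61 with ammonium at 1.5 h.

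The other decarboxylase genes did not share this course. SAMDC (AT3G02470), the best known member of the family, rose with ammonium and differed between the ions. Its values were 12.16, 12.27 and 12.20 before supply. With nitrate they were 12.28, 12.25 and 12.20 at 1.5 h and 12.14, 12.26 and 12.05 at 8 h. With ammonium they were 12.57, 12.56 and 12.53 at 1.5 h and 12.57, 12.55 and 12.51 at 8 h. All 6 ammonium samples lay above all 9 others, while nitrate and unsupplied roots overlapped.

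For SAMDC the change with ammonium was 0.35 ± 0.06 log2 at 1.5 h (1.27-fold, limma adjusted p = 0.00165) and 0.34 ± 0.06 at 8 h (1.26-fold, adjusted p = 0.0016). With nitrate it was 0.03 ± 0.06 and −0.06 ± 0.06, neither called. Set against each other, the ions differed at both times, nitrate minus ammonium being −0.31 ± 0.06 at 1.5 h (adjusted p = 0.00384) and −0.39 ± 0.06 at 8 h (adjusted p = 0.000572). At 8 h AT5G15950 and SAMDC therefore lay on the same side in the ion comparison, lower with nitrate, though the change from before supply was downward for AT5G15950 and upward with ammonium for SAMDC. For 1.5 h with ammonium alone, samples did not overlap those before supply, in either direction, for 27.5% of all probe sets. That share is for a single pair of groups, and none was taken for all ammonium samples against all others. The calls for SAMDC held in each alternative run, with a highest adjusted p of 0.0249.

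Core hypoxia genes moved in supplied roots too. The mean level of the 6 measured hypoxia genes (of 14 listed) was 7.16 to 8.11 before supply, and with ammonium 9.32 to 10.39 after 1.5 h and 8.58 to 9.85 after 8 h. With nitrate it was 7.84 to 10.20 at 1.5 h and 7.23 to 8.95 at 8 h, both ranges overlapping the roots before supply. At 1.5 h with nitrate 2 of the 6 were called higher, AT3G10040 by 2.16 ± 0.53 log2 (limma adjusted p = 0.0113) and AT1G33055 by 2.30 ± 0.49 (adjusted p = 0.00422). With ammonium 5 of the 6 were called at 1.5 h and 3 at 8 h. With nitrate at 8 h limma called 0, with 0 also at an unadjusted p under 0.05. Of all probe sets, 13.3% were called at 1.5 h with nitrate and 13.8% with ammonium. At 8 h these shares were 20.6% with nitrate and 17.6% with ammonium. The part of the shift of the hypoxia genes in the values of SAMDC and AT5G15950 was not tested.

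AT3G25570, the third decarboxylase gene, rose in every supplied group. Its samples read 6.99, 7.12 and 6.99 before supply. With nitrate they read 7.34, 7.73 and 7.40 at 1.5 h and 7.29, 7.55 and 7.64 at 8 h. With ammonium they read 7.38, 7.30 and 7.52 at 1.5 h and 7.56, 7.58 and 7.69 at 8 h. All 12 supplied samples exceeded the 3 samples before supply. For 1.5 h with nitrate alone, the groups did not overlap, in either direction, for 27.3% of all probe sets.

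The rise of AT3G25570 at 8 h was 0.57 ± 0.11 log2 with ammonium (limma adjusted p = 0.0014) and 0.46 ± 0.11 with nitrate (adjusted p = 0.00576). At 1.5 h it was 0.46 ± 0.11 with nitrate (adjusted p = 0.00864) and 0.37 ± 0.11 with ammonium (adjusted p = 0.033). The early calls were sensitive to single arrays. The nitrate call was lost without nitrate replicate 2 (adjusted p = 0.0527). The ammonium call did not hold without unsupplied replicate 1 or 3 (0.0795 and 0.0991) or without ammonium replicate 1 or 3 (0.0724 and 0.131). No difference between the ions was called for AT3G25570, with nitrate minus ammonium at 0.09 ± 0.11 at 1.5 h and −0.11 ± 0.11 at 8 h. Whether probes of these genes bind each other's transcripts was not checked, since no probe sequences were used here.

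**Figure D2:**
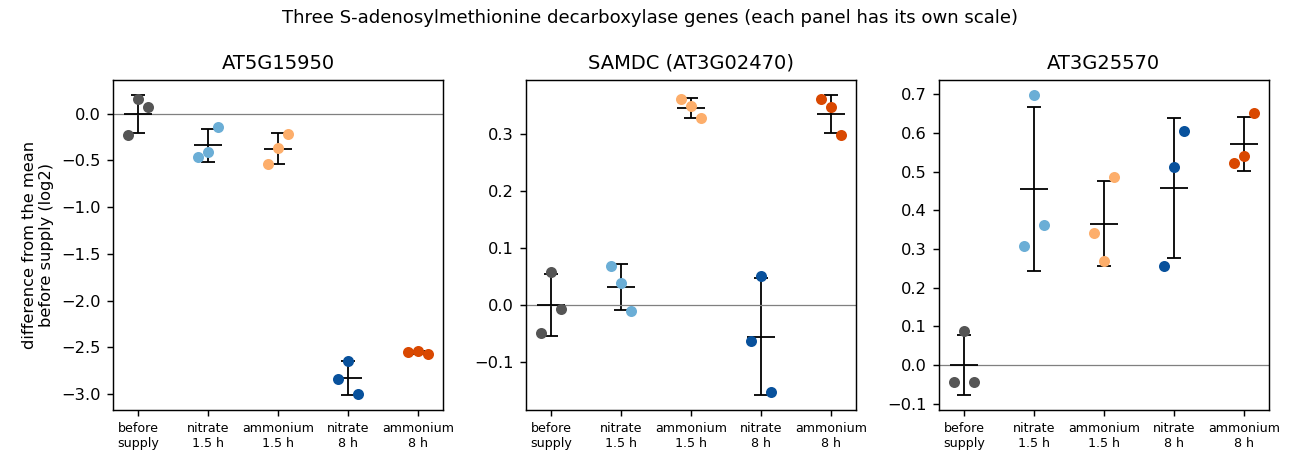
Difference of each sample from the gene's mean before supply (log2, vertical axis, with its own scale in each panel) for the 3 measured S-adenosylmethionine decarboxylase genes. Points are samples and bars with whiskers are group means ± SD (n = 3). AT5G15950 is low in both groups at 8 h, SAMDC is high in both ammonium groups, and AT3G25570 is high in all supplied groups.

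Lists of 93 genes of polyamine synthesis, breakdown, conjugation and transport, of methionine and S-adenosylmethionine supply, of ethylene and arginine metabolism and of polyamine responses had 25 genes with a named probe set. Of the 24 other than AT5G15950, 14 (58.3%) were called in none of the 9 comparisons, against 62.1% of all probe sets. Against the roots before supply, 4 of 24 were called at 1.5 h of nitrate, where 13.3% of all probe sets were called, and 6 at 1.5 h of ammonium, where 13.8% were. At 8 h there were 6 with nitrate (20.6% of all probe sets) and 5 with ammonium (17.6%). These counts are 16.7%, 25%, 25% and 20.8% of the 24 genes, each somewhat above the share of all probe sets, and nothing particular to the list is read from them.

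The median change of the 24 genes after 8 h was 0.03 log2 with ammonium and 0.05 with nitrate, against −0.03 and −0.02 for all probe sets. Between the ions 5 of 24 were called at 1.5 h and 1, SAMDC, at 8 h, where 10.7% of all probe sets were called at either time. From 1.5 h to 8 h 4 were called with nitrate (11.9% of all probe sets) and 3 with ammonium (11.5%). A shift of the ion difference between the times was called for 1 gene (4.5% of all probe sets). The count at 1.5 h of ammonium became 11 with array weights, and that at 8 h of ammonium became 9. At 8 h of nitrate it became 3 when only the groups compared were fitted. At 1.5 h of nitrate it became 2 without nitrate replicate 2.

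**Figure D3:**
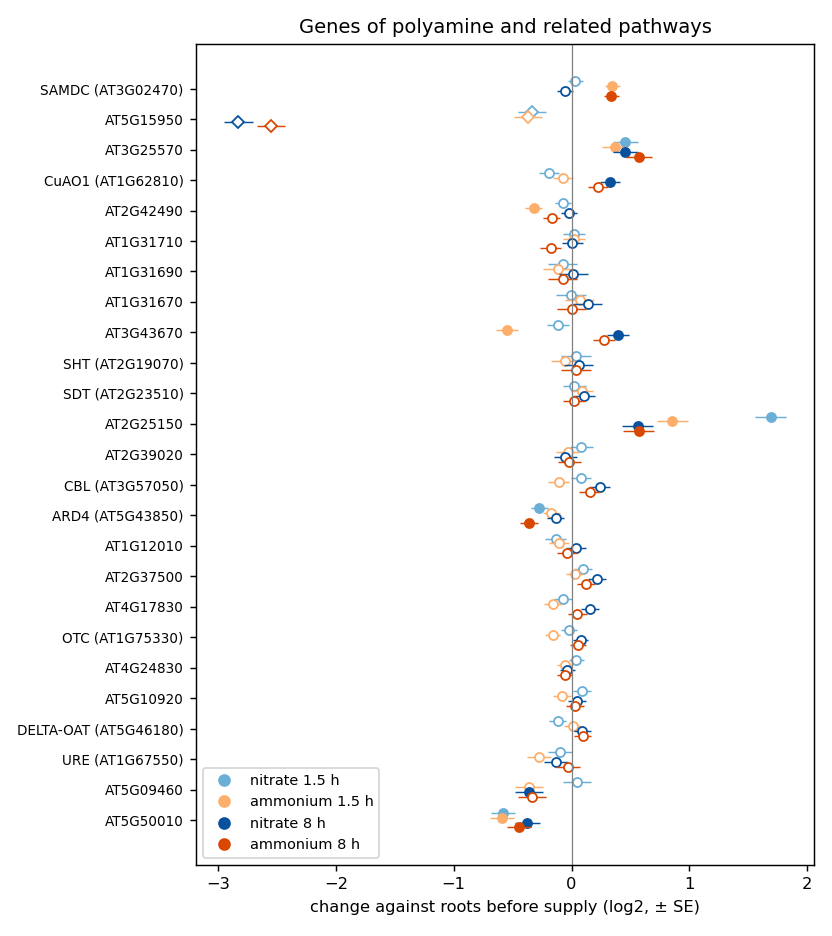
Change against the roots before supply (log2, horizontal axis, ± SE) of the 25 measured genes of polyamine and related pathways, with 1 colour per supplied group. Filled circles passed limma's adjusted p of 0.05, open circles did not, and diamonds mark AT5G15950, which is described without a test. AT5G15950 at 8 h lies at −2.55 and −2.83, while all other points lie between −0.59 and 1.69.

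Among genes that consume polyamines, AT2G25150, which encodes an acyltransferase that builds hydroxycinnamoyl conjugates of spermidine, changed most. Its samples read 4.79, 4.67 and 4.39 before supply, not shown to be above background, so no fold is given. With nitrate they read 6.20, 6.43 and 6.30 after 1.5 h and 5.44, 4.94 and 5.16 after 8 h. With ammonium they read 5.47, 5.67 and 5.28 after 1.5 h and 5.09, 5.24 and 5.23 after 8 h. Levels were highest early with nitrate, and the groups at 8 h overlapped.

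Fitted log2 differences from that level are given without a fold, since their size depends on a level near the array's background. The early difference of AT2G25150 was 1.69 ± 0.13 log2 with nitrate (limma adjusted p = 1.53e-07) and 0.85 ± 0.13 with ammonium (adjusted p = 0.000347). At 8 h it was 0.56 ± 0.13 (adjusted p = 0.00564) and 0.57 ± 0.13 (adjusted p = 0.00615). Nitrate exceeded ammonium by 0.84 ± 0.13 at 1.5 h (adjusted p = 0.000437), and the ion difference then changed by −0.85 ± 0.19 (adjusted p = 0.0153). The other measured genes of its list, SHT, SDT and AT2G39020, were called in no comparison, and SHT and SDT were not shown to be above background.

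Copper amine oxidases, which break down putrescine and spermidine, gave 6 measured genes. AT3G43670 fell at 1.5 h of ammonium by 0.55 ± 0.09 log2, with values of 6.84, 6.95 and 6.57 against 7.19, 7.37 and 7.45 before supply (limma adjusted p = 0.000781). It rose at 8 h of nitrate by 0.40 ± 0.09 (adjusted p = 0.00571) and stood at 0.27 ± 0.09 at 8 h of ammonium, not called. From 1.5 h to 8 h AT3G43670 rose by 0.82 ± 0.09 with ammonium (adjusted p = 3.86e-05) and by 0.51 ± 0.09 with nitrate (adjusted p = 0.00165). At 1.5 h nitrate exceeded ammonium by 0.44 ± 0.09 (adjusted p = 0.00519). CuAO1 rose at 8 h of nitrate by 0.32 ± 0.08 (adjusted p = 0.00984, and 0.052 with only these groups in the fit). At 8 h of ammonium CuAO1 was at 0.22 ± 0.08 (adjusted p = 0.0769), called in 2 of 13 alternatives. Nitrate minus ammonium at 8 h was 0.10 ± 0.08 for CuAO1, not called. From 1.5 h to 8 h it rose by 0.51 ± 0.08 with nitrate (adjusted p = 0.000563) and by 0.30 ± 0.08 with ammonium (adjusted p = 0.0289). That ammonium call was lost in 6 of 13 alternatives. AT2G42490 fell at 1.5 h of ammonium by 0.32 ± 0.07 (adjusted p = 0.00542). The other 3, AT1G31710, AT1G31690 and AT1G31670, were not called in the main fit, and the last 2 were not shown to be above background. AT1G31710 was called lower at 8 h of ammonium in 2 of 14 alternatives (lowest adjusted p = 0.0219). Second probe sets of AT1G31710 and AT1G31690 were not called either. That of AT1G31710 had nitrate minus ammonium at 0.41 ± 0.13 at 8 h (adjusted p = 0.0689).

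AT5G50010, a bHLH gene related to the thermospermine-responsive regulator SAC51, fell in all supplied groups. Its samples were 6.84, 7.12 and 7.23 before supply and 6.45 to 6.82 in the other 12. After 1.5 h the change was −0.58 ± 0.10 log2 with nitrate and −0.59 ± 0.10 with ammonium (limma adjusted p = 0.00101 for each). After 8 h with ammonium it was −0.45 ± 0.10 (adjusted p = 0.00621). At 8 h of nitrate it was −0.37 ± 0.10 (adjusted p = 0.0158). That last call did not hold without unsupplied replicate 2 or 3 (0.0558 and 0.0824), without nitrate replicate 1 (0.0833) and with only the groups compared in the fit (0.104). Its relative AT5G09460 was at −0.36 ± 0.12 at 8 h of nitrate (adjusted p = 0.0421), a call lost in 5 of 13 alternatives. Those were the fit of the compared groups alone (0.0844) and the fits without unsupplied replicate 2 or 3 (0.133 and 0.115) or nitrate replicate 1 or 2 (0.195 and 0.0735). With ammonium AT5G09460 was at −0.36 ± 0.12 at 1.5 h (adjusted p = 0.0563) and −0.33 ± 0.12 at 8 h (adjusted p = 0.0669). These differences were about as large as that with nitrate and were called in 5 and 6 of 13 alternatives. Its samples were 7.47, 7.71 and 7.67 before supply and, with ammonium, 7.11, 7.36 and 7.30 at 1.5 h and 7.16, 7.34 and 7.35 at 8 h, without overlap.

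Of 12 listed genes of polyamine synthesis only the 3 decarboxylase genes had a named probe set. The steps from arginine to putrescine, and those that build the larger polyamines on putrescine, were therefore not read. Whether probe sets without exactly 1 named gene read these other genes was not checked. Of 7 measured genes of arginine metabolism, none was called against the roots before supply by limma in any group, where 13.3% to 20.6% of all probe sets were. At an unadjusted p under 0.05 there were 2 at 1.5 h with ammonium, 1 at 8 h with nitrate and 0 in the others. AT2G37500 was at 0.22 log2 at 8 h with nitrate (adjusted p = 0.0566) and was called in 7 of 13 alternatives, with a lowest adjusted p of 0.012. URE, the urease gene, was called at 1.5 h with ammonium in 3 of 13 alternatives, with a lowest adjusted p of 0.0201. Under array weights only, AT4G17830 was called at 1.5 h with ammonium (limma adjusted p = 0.0167) and DELTA-OAT at 1.5 h with nitrate (0.0208). Ornithine carbamoyltransferase (OTC) was called at 8 h with nitrate (0.0451), also under array weights only. OTC differed by 0.21 ± 0.07 log2 between 8 h and 1.5 h of ammonium (limma adjusted p = 0.0491). That call was lost in 9 of 13 alternatives, including the removal of any 1 of the 6 samples compared (0.0616 to 0.145). ARD4, an acireductone dioxygenase of the cycle that recovers methionine from the by-product of polyamine synthesis, fell at 8 h of ammonium by 0.36 ± 0.07 (adjusted p = 0.00268) and was at −0.13 ± 0.07 with nitrate, not called. Its change at 1.5 h of nitrate was −0.27 ± 0.07 (adjusted p = 0.0206). That call was lost in the fit of the compared groups alone (0.0616), without unsupplied replicate 1 or 3 (0.0719 and 0.051) and without nitrate replicate 2 or 3 (0.0797 and 0.0786). The methionine gene CBL and the ethylene gene AT1G12010 (ACC oxidase) were called in no comparison of the main fit. In the alternatives CBL was called in 5 of 13 at 8 h of nitrate (lowest limma adjusted p = 0.0185). It was called in 4 of 13 from 1.5 h to 8 h of ammonium (lowest 0.0171) and in 1 of 13 at 1.5 h of ammonium (0.0472).

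Genes whose course over the 5 groups was closest to that of AT5G15950 were found by the root-mean-square difference of group means, each gene centred on its own mean, over 13332 genes. SWEET14, a sugar transporter, was closest at 0.36 log2, where the median gene was at 1.21. The profile of AT5G15950 itself had a root-mean-square size of 1.21, which is the distance of a gene that does not change. Its mean went from 7.92 ± 0.21 (SD, n = 3) before supply to 7.75 ± 0.14 and 7.44 ± 0.05 at 1.5 h of nitrate and ammonium. At 8 h it was 5.64 ± 0.30 and 6.22 ± 0.40. Like AT5G15950, SWEET14 had its lowest mean at 8 h of nitrate, but its late groups overlapped (5.37 to 5.97 and 5.77 to 6.54).

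The next closest were AT1G04330 and STR18, a sulfurtransferase gene, at 0.45 each, AT3G55790 at 0.51, the carboxypeptidase-like gene scpl23 at 0.55, AT3G53980 at 0.59, AT4G00670 at 0.61 and AT4G14020 at 0.62. Of these, STR18 had the largest difference in the nitrate order, at 7.95 ± 0.58 with nitrate and 9.21 ± 0.28 with ammonium after 8 h. AT3G53980 had the same order with a smaller difference and less spread, at 10.93 ± 0.17 and 11.50 ± 0.07. The late groups did not overlap for either gene. AT4G00670 had the opposite order, lowest with ammonium. So did AT1G04330 (3.99 with ammonium and 4.30 with nitrate after 8 h), though its late groups overlapped. AT3G55790 was uneven between replicates (SD 0.92 before supply). AT1G04330 and scpl23 at 8 h of both ions, and AT3G55790 at 8 h of nitrate, were not shown to be above background.

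Closest to the mirror image were AT1G56300 at 0.28, the cold-regulated gene COR27 at 0.29, AT1G33340 at 0.33 and AT1G11210 at 0.44. COR27 went from 4.09 ± 0.22 before supply, not shown to be above background, to 6.63 ± 0.18 with nitrate and 6.74 ± 0.28 with ammonium after 8 h. AT1G56300 went from 4.85 ± 0.21 to 7.09 ± 0.14 and 7.25 ± 0.05. Its level before supply and that of AT1G11210 (4.61) were not shown to be above background either, so the distances of these 3 genes rest in part on such levels. Likeness was measured on the same samples for all genes and carries no test. By correlation over the 15 samples in place of this measure, 2 of the 8 closest genes were shared, SWEET14 and AT3G53980.

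**Figure D4:**
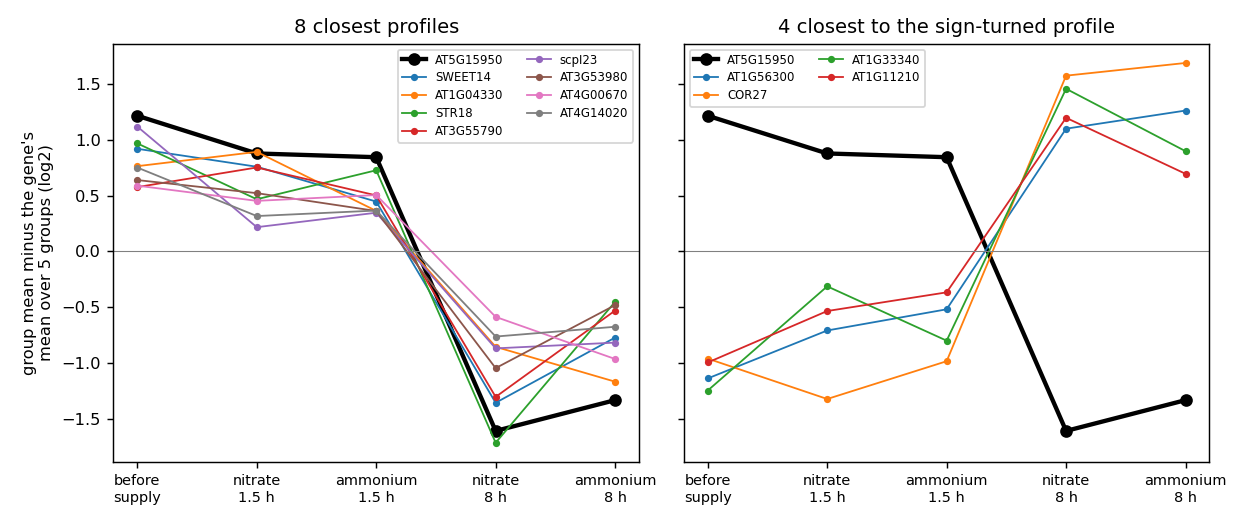
Group means centred on each gene's mean over the 5 groups (log2, vertical axis). The black line is AT5G15950, with its 8 closest genes in the left panel and the 4 genes closest to its mirror image in the right panel. All lines in the left panel are lower in both groups at 8 h than in the 3 earlier groups, and those in the right panel are higher.

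On the chromosome AT5G15950 lies at chr5:5205869-5208036 (TAIR10.1, 2168 bp, 2 transcripts in RefSeq). Of the 5 annotated genes on each side, 4 had a named probe set. AT5G15940, whose annotated end lies 985 bp from AT5G15950, fell after 8 h by 0.58 ± 0.12 log2 with nitrate (limma adjusted p = 0.00243) and by 0.54 ± 0.12 with ammonium (adjusted p = 0.00523). Its values were 6.39 to 6.52 before supply, 5.78 to 6.09 after 8 h with nitrate and 5.82 to 6.08 after 8 h with ammonium. AT5G15940 also fell at 1.5 h of ammonium by 0.49 ± 0.12 (adjusted p = 0.0128, and 0.0671 without ammonium replicate 1).

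Further away on the same side, AT5G15910 fell after 8 h by 0.40 ± 0.08 with nitrate (limma adjusted p = 0.00257) and by 0.35 ± 0.08 with ammonium (adjusted p = 0.00777), with no call at 1.5 h. TBL19 fell by 0.54 ± 0.11 and 0.63 ± 0.11 at 8 h (adjusted p = 0.00224 and 0.000844). It had already fallen at 1.5 h of ammonium, by 0.50 ± 0.11 (adjusted p = 0.00656). AT5G15980 on the other side was at 0.05 ± 0.11 and 0.09 ± 0.11, not called. At 8 h 20.6% of all probe sets were called with nitrate and 17.6% with ammonium, and all 3 genes that fell did so by less than AT5G15950. KIN1 and KIN2, which lie between AT5G15950 and AT5G15980, were not analysed here.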

How the data were processed

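The authors deposited RMA expression values per probe set, which are on a log2 scale as judged from their range of 2.45 to 13.96. RMA and limma are named without version in the submitters' processing notes, and scan files were not used here. Values were used without a filter. Genes were named from the array annotation (13513 probe sets with 1 gene, 503 with several, 8730 with none listed) and RefSeq (TAIR10.1, 13436 matched), taking the probe set with the highest mean per locus. Roles of loci without a symbol are general knowledge. Limma 3.58.1 (R 4.3.3) was fitted to all 22746 probe sets with 5 group means over 15 samples and 9 two-sided contrasts, with Benjamini-Hochberg adjustment over all probe sets and calls below 0.05. The procedure was tested on simulated data. The figures were drawn in Python 3.11.15.

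AT5G15950, the lists and the tests were chosen with earlier results of these data known. Named genes were the decarboxylases, up to 4 called members per list and comparison, the 8 closest and 4 mirror profiles and 5 neighbours on each side. Genes outside that rule are given only as not called or in counts, with some exceptions. These are NRT2.5, AT1G31710, AT2G37500, AT4G17830, DELTA-OAT, URE, CBL and the marker genes, which were chosen after their values were seen. Alternatives were a second quantile normalization, median centring, removal of low probe sets, a variance trend with robust estimation, array weights, the replicate number as a block, the compared groups alone and each sample left out.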

Additional observations from a re-analysis of the deposited data

Results flagged for a closer look

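AT2G25150, the spermidine conjugation gene, responded differently to the ions at the 2 times. Nitrate minus ammonium changed by −0.85 log2 from 1.5 h to 8 h (limma adjusted p = 0.0153), and across the alternatives the adjusted p ranged from 0.00552 to 0.0435. The level before supply was not shown to be above background.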

How the results depend on the processing

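For AT5G15950 each of the 123 alternative values moved by less than 1 SD between replicates. At 8 h of ammonium they ranged from −2.67 to −2.47 log2 and at 8 h of nitrate from −2.94 to −2.74. Nitrate minus ammonium at 8 h stayed between −0.37 and −0.19, while at 1.5 h, where it was near 0, it lay between −0.07 and 0.11.

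Counts of the 24 pathway genes moved more, and the causes were not tested beyond the fewer samples in some fits. Under array weights, where unsupplied replicate 3 weighed 7.64 and unsupplied replicate 1 weighed 0.252, 11 were called in place of 6 at 1.5 h of ammonium and 9 in place of 5 at 8 h of ammonium. With only the groups compared, 3 in place of 6 were called at 8 h of nitrate and 1 in place of 3 from 1.5 h to 8 h of ammonium. Between the ions at 8 h, 2 in place of 1 were called after quantile normalization, without low probe sets, with a variance trend and with the replicate block. With that block 2 in place of 1 were called for the change of the ion difference. Over all probe sets array weights gave 6061, 6151, 7177 and 6631 calls against the roots before supply, in place of 3017 and 3139 at 1.5 h and 4689 and 4008 at 8 h (nitrate, then ammonium), and the compared groups alone gave 2069 in place of 3139. Leaving out 1 sample gave 2 to 4 calls at 1.5 h of nitrate (4 with all samples), 3 to 5 between the ions at 1.5 h (5) and 1 to 2 from 1.5 h to 8 h of ammonium (3). The count between the ions was 3 without nitrate replicate 2 or 3 or ammonium replicate 1 or 3, where AT2G42490 and AT5G09460 were lost. That from 1.5 h to 8 h of ammonium was lower without any 1 of the 6 samples compared. The 8 genes closest to AT5G15950 depended on the measure, with 2 shared under correlation. The labels give replicate numbers no shared source, and 14 of 30 same-numbered pairs had deviations correlated above 0.1, so the numbers were not used as pairs. The median correlation was 0.0918 for the same number and −0.0474 for different ones, and 8 of 15 samples correlated best with their own number, a hint from the data that numbers may share something. With the replicate block more probe sets were called in every comparison, such as 4457 in place of 4008 at 8 h of ammonium. AT5G09460 was then called at 1.5 h and 8 h of ammonium (limma adjusted p = 0.00192 and 0.00264) and for the ion difference (0.0164). Taken against the unsupplied sample of the same number, AT5G15950 at 1.5 h was at −0.57 to −0.21 log2 with nitrate and −0.52 to −0.28 with ammonium. Arrays without detection calls limit statements on levels under 5 log2.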
